A study of Mus musculus with 10 samples.

Results

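The 10 genes described here are 5 transcription factors of the trophectoderm (*Cdx2*, *Elf5*, *Gata2*, *Gata3* and *Hand1*) and 5 keratins (*Krt7*, *Krt8*, *Krt18*, *Krt19* and *Krt17*), out of 18193 genes that the platform annotation names alone on at least 1 probe set. They were taken by symbol, and 17 probe sets carried only 1 of these symbols, 9 for the factors and 8 for the keratins. *Krt17* was chosen by its slope, among the steepest falls with days of doxycycline (Dox) in LIF+serum, so that slope is a description here and carries no p-value. *Krt17* is also not a simple keratin, since it is best known from hair follicles and wounded epidermis. All 10 samples were male ES cells of strain 129SV in which the endogenous *Max* gene had been disrupted on both alleles, and untreated cells carried the same disruption. *Max* was supplied as a cDNA in the *ROSA26* locus under a tetracycline-off system, which Dox switches off. RNA was measured on 1 array per sample. The first array set in LIF+serum held untreated cells and cells after 1, 2, 3 and 4 d of Dox, and the second held a further untreated sample with cells after 6 and 8 d. The third set held cells kept for 6 d in 2i, a medium with inhibitors of MEK and GSK3β, without Dox and with 6 d of Dox. The study names this condition 2i+LIF, and it is called 2i here. The medium of the first 8 arrays was taken from the methods of the study, since their labels name several media. Nothing in the labels states that the 2 untreated samples in LIF+serum came from separate cultures, and no time was repeated within a set. The p-values below therefore rest on departures of single arrays from a straight line over days. Such departures mix array-to-array spread, part of which may be technical, with any time course that is not straight.

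The *Max* probe set read 5.57, 5.53, 5.60, 5.07 and 5.20 (log2 level) in the first set in order of Dox days, 5.74, 6.20 and 6.19 in the second, and 5.74 and 5.54 in 2i. Its probes were not placed relative to the disrupted part of the gene or to the cDNA, so these levels check neither the knockout nor the Dox labels. The beta-actin control probe sets, whose 3′ minus 5′ difference grows as RNA is degraded, differed by 1.46 and 1.22 on the log2 scale at 6 and 8 d of Dox and by 0.41 to 0.88 on the other 8 arrays. Those of *Gapdh* differed by 0.09 and 0.05 at 6 and 8 d and by 0.12 on the untreated array of that set. Of 10 markers of ES cells, 2 rose with days of Dox (*Nanog* and *Klf4*) and 1 fell (*Utf1*) (limma, adjusted p below 0.05). Over all probe sets these shares were 4.77% and 4.17%. At an unadjusted limma p below 0.05, 5 of the 10 rose and 1 fell. Their mean log2 level was 11.4 without Dox and 11.8 at 4 d in the first set. In the second set it was 11.7, 12.1 and 11.9 at 0, 6 and 8 d, and on every array it lay between 11.4 and 12.2.

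The trophectoderm is the outer epithelium of the blastocyst, from which the trophoblast of the placenta comes. *Cdx2*, *Elf5*, *Gata2*, *Gata3* and *Hand1* encode DNA-binding proteins that act in setting up or differentiating this lineage. Its cells are among the first in the embryo to lay down keratin filaments, which form only when a type I chain (here keratins 18, 19 and 17) pairs with a type II chain (here keratins 7 and 8). Keratins of simple, single-layered epithelia also occur in the primitive endoderm and later in many glands and ducts.

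Promoter sequence from the RefSeq-based table of the GRCm38.p6 build was matched for 7 of the 10 genes and is shown for *Krt7*, *Krt8* and *Krt18*, the 3 of the 5 member keratins with the largest folds up in LIF+serum. Each line runs 5′ to 3′ on the gene's own strand from 150 bases before the transcription start to 10 bases after it. Capitals mark a GC box (GGGCGG) or a TATA box (TATAAA) read on either strand.

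Krt7, chr15:101412253-101412412, plus strand: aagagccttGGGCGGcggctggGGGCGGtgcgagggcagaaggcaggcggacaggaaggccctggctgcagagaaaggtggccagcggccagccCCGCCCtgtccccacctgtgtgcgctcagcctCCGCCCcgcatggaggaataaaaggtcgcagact

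Krt8, chr15:102004333-102004492, minus strand: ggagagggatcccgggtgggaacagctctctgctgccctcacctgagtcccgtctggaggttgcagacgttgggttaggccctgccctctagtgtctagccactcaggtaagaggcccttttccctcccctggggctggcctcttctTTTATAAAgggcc

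Krt18, chr15:102028066-102028225, plus strand: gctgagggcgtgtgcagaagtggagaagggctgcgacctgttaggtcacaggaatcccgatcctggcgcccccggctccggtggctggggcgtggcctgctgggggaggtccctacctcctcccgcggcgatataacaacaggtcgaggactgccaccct

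The *Krt7* window held 4 GC boxes, the *Krt8* window held a TATA box on both strands in overlapping letters, and the *Krt18* window held neither motif. Over windows of 300 bases (250 before and 50 after the start), 4 of the 9 windows of these genes held a GC box against 35.7% of 32851 windows in the table, and 1 of 9 held a TATA box against 13.6%. The E-box CACGTG, the motif that dimers of MYC and MAX bind, was in none of the 9 windows and in 7.15% of all windows. *Elf5* and *Gata2* have 2 windows each, and *Hand1*, *Krt19* and *Krt17* have none in the table. *Krt8* and *Krt18* lie next to each other on chromosome 15 in opposite directions, with no protein-coding gene and 2 long non-coding RNA genes between them in the RefSeq gene table.

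In LIF+serum, the members did not change as a group. *Krt7* rose with days of Dox, *Krt17* had the second steepest negative slope of all genes, *Krt8* and *Krt18* were highest at 8 d, and *Krt19* and the 5 factors did not pass the test. Of the 9 members with a test, 1 rose and 0 fell at an adjusted p below 0.05 (limma slope over 8 arrays with the array set as a covariate, Benjamini-Hochberg over 45037 probe sets), and 2 rose and 0 fell at an unadjusted p below 0.05. Over all probe sets, 4.77% rose and 4.17% fell, 8.95% in all, at an adjusted p below 0.05. At an unadjusted limma p below 0.05, 5252 of the 45037 rose and 5594 fell, a background that also applies to the unadjusted counts of gene lists below. The median slope of these 9 genes was 0.03 on the log2 scale per day, against -0.01 over all probe sets. Because the samples were cultures measured whole, a change in the number of cells of a type cannot be told apart from a change in RNA per cell.

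**Figure D1:**
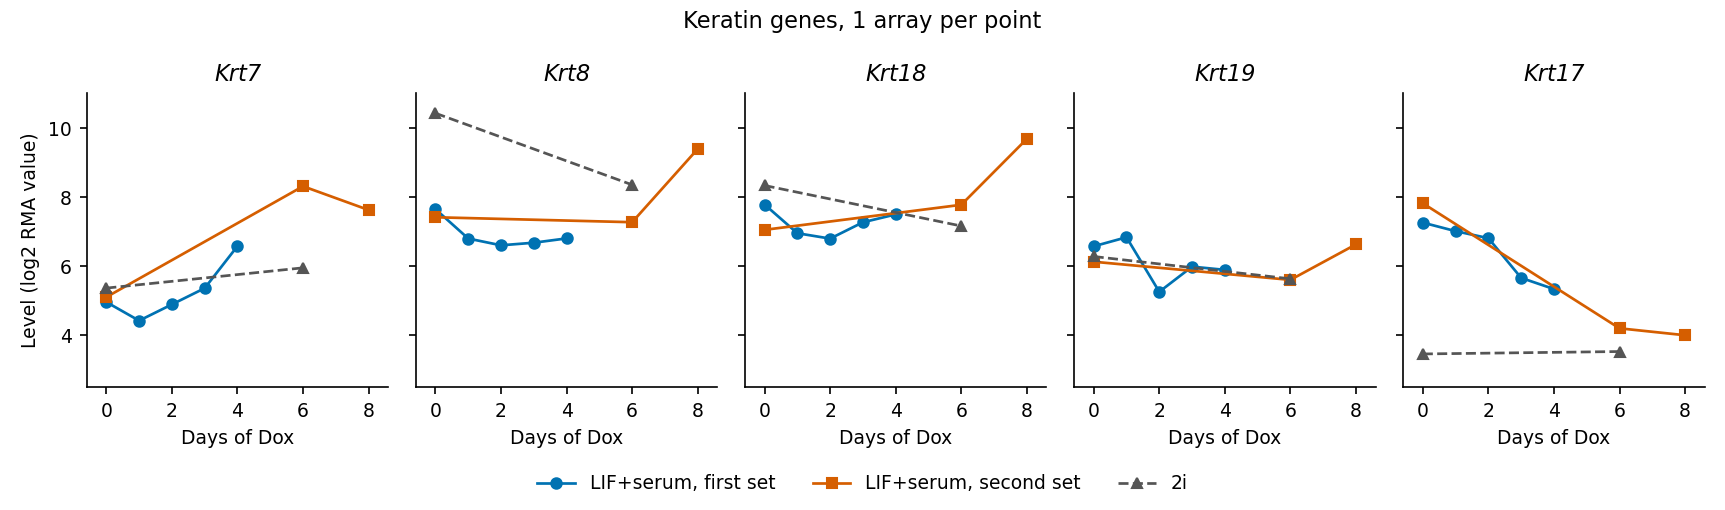
Level (log2 RMA value, y axis) of the 5 keratin genes against days of Dox (x axis), each point 1 array, with lines joining arrays of 1 set; levels are not comparable between genes. *Krt7* ends at 7.63 and *Krt17* at 4.0 at 8 d in LIF+serum, while *Krt8* and *Krt18* lie below their untreated array from 1 to 4 d, read 7.27 and 7.78 at 6 d and reach 9.39 and 9.69 at 8 d.

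*Krt7* encodes a type II keratin of ducts and of trophoblast. Its log2 level was 4.96 in the untreated cells of the first set and 4.42, 4.89, 5.36 and 6.58 after 1, 2, 3 and 4 d of Dox. In the second set it was 5.10 without Dox, 8.31 at 6 d and 7.63 at 8 d. The 3 arrays from 4 d on lay above all others in LIF+serum, and the array at 1 d was the lowest. Relative to its own set's untreated array, the level was 3.07-fold at 4 d, reached 9.26-fold at 6 d and stood at 5.75-fold at 8 d, while the 2 untreated arrays differed by 0.14 on the log2 scale. The slope was 0.38 ± 0.07 per day (log2, SE, n = 8 arrays), with an adjusted p of 0.0133. Within the first set the slope was 0.42 (limma adjusted p = 0.0777) and within the second it was 0.37 (limma adjusted p = 0.0124). The fit of the second set had only its untreated array and those at 6 and 8 d. The difference between the sets did not pass the limma test of the interaction of day and set (adjusted p = 0.932). That test called 0.00222% of all probe sets. The call of *Krt7* was lost without the second untreated array, where the slope was 0.29 with an adjusted p of 0.407 and the same fit called 0 of all probe sets (limma; 3165 with a positive and 2974 with a negative slope had an unadjusted p below 0.05).

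*Krt8* and *Krt18* encode the partners that make up the first keratin filaments of the embryo. The log2 level of *Krt8* was 7.65 without Dox and 6.80, 6.60, 6.68 and 6.80 at 1 to 4 d in the first set. In the second set it was 7.42 without Dox, 7.27 at 6 d and 9.39 at 8 d. Thus all 4 Dox arrays of the first set lay below both untreated arrays, 6 d lay 0.14 below its untreated array, which is less than the 0.24 between the untreated arrays, and 8 d stood above all others in LIF+serum. The level was 2.07-fold lower at 2 d and 3.94-fold higher at 8 d. The slope over 8 arrays was 0.10 ± 0.09 per day (SE) and did not pass (adjusted p = 0.53). The slope was -0.18 in the first set and 0.18 in the second, and the interaction did not pass (adjusted p = 0.41). The other 2 *Krt8* probe sets, some of whose probes may also bind other transcripts, gave 3.84-fold and 4.34-fold at 8 d, and the 3 probe sets ran together over the 10 arrays (pairwise Pearson r 0.991 to 0.996).

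*Krt18* read 7.79 without Dox and 6.95, 6.80, 7.27 and 7.50 at 1 to 4 d in the first set, on the log2 scale. In the second set it read 7.05 without Dox, 7.78 at 6 d and 9.69 at 8 d. As with *Krt8*, the Dox arrays of the first set were below their untreated array, and 8 d was the highest of the 8 arrays. The 2 untreated arrays were 0.73 apart, so the 1.65-fold level at 6 d (0.72 on the log2 scale) was no larger than that gap, whereas the 6.21-fold level at 8 d (2.63) was. The slope was 0.21 ± 0.08 per day (SE, n = 8), with an adjusted p of 0.119 and an unadjusted limma p of 0.0198, and the interaction did not pass (adjusted p = 0.442). Without the array at 8 d the slopes were 0.07 for *Krt18* and -0.08 for *Krt8*. Without the first untreated array *Krt18* passed, with a limma adjusted p of 0.0217. Within the second set alone it also passed (slope 0.28, limma adjusted p = 0.0326), in a fit with only the untreated array and those at 6 and 8 d. The levels of *Krt8* and *Krt18* had a Pearson r of 0.934 over the 8 arrays in LIF+serum and 0.726 over all 10, as a description over arrays that share treatments and sets.

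The array at 8 d also stood apart in markers of primitive endoderm, an extraembryonic epithelium that makes simple keratins. Of 10 such markers, 4 were at least 2-fold above the untreated array at 8 d and 1 at least 2-fold below it, against 5.49% and 4.51% of all probe sets. The 4 were *Gata6* at 4.18-fold, *Foxa2* at 4.64-fold, *Pdgfra* at 6.05-fold and *Col4a1* at 2.76-fold. The mean log2 level of the 10 was 6.52 at 8 d and between 5.66 and 5.94 on the other 7 arrays in LIF+serum, while *Gata4* was 1.03-fold, *Sox17* 1.51-fold, *Sox7* 0.631-fold, *Lamb1* 0.851-fold and *Lama1*, the lower one, 0.498-fold at 8 d. With days of Dox, 1 of the 10 rose (*Pdgfra*) and 0 fell (limma; 2 and 1 at an unadjusted p below 0.05). Of 8 fibroblast markers 2 were at least 2-fold higher at 8 d, *Col1a2* at 3.28-fold and *Col3a1* at 3.33-fold, and the mean of the 8 was 4.74 there against 4.35 to 4.69 on the other 7, with 0 called by slope at an adjusted or an unadjusted limma p below 0.05. The list of trophectoderm and trophoblast markers holds the members *Cdx2*, *Elf5*, *Gata3* and *Krt7*, so it partly restates them. Its mean over the 9 measured was also highest at 8 d, at 6.04 against 5.22 to 5.78 on the other 7. At least 2-fold higher there were 2 of the 9, *Eomes* at 2.81-fold and *Krt7*, itself a member, and 0 were at least 2-fold lower. The part of cells of any of these types, or of the beta-actin difference at 6 and 8 d, in the keratin levels was not tested.

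*Krt19* encodes a small type I keratin of simple epithelia. Its log2 level ran 6.58, 6.84, 5.26, 5.99 and 5.89 from 0 to 4 d in the first set and 6.13, 5.60 and 6.63 at 0, 6 and 8 d in the second. The array at 2 d was the lowest, 2.49-fold below its untreated array, and the untreated arrays, 1 d and 8 d were the highest. The levels had no run in 1 direction, and the slope of -0.03 ± 0.07 per day (SE, n = 8) did not pass (adjusted p = 0.864).

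*Krt17* had log2 levels of 7.26, 7.01, 6.81, 5.66 and 5.34 from 0 to 4 d in the first set. In the second set they were 7.82, 4.2 and 4.0 at 0, 6 and 8 d. Each further time in a set was lower than the one before it, and both untreated arrays lay above every Dox array. The level lay 1.19-fold below that of untreated cells at 1 d, 3.79-fold below it at 4 d and 12.3-fold and 14.1-fold below it at 6 and 8 d, against a gap of 0.56 on the log2 scale between the untreated arrays. The slope of -0.51 ± 0.04 per day (SE, n = 8), by which it was chosen, lay between those of *2010204K13Rik* (-0.52) and *Dancr* (-0.48), and was -0.52 within the first set and -0.51 within the second. The second *Krt17* probe set stayed between 3.35 and 3.83 on all 10 arrays, so the fall was read from 1 probe set, and 1 probe set shared with *Krt14* was left out. Over the 10 arrays, the genes whose log2 levels ran most like those of *Krt17* were *2010204K13Rik* (Pearson r 0.983), *Bex4* (0.978) and *9430069I07Rik* (0.97), out of 10902 genes with a range of at least 1. For *Krt18* they were *Igf1r* (0.92), *Pdrg1* (0.916) and *Gm4802* (0.916).

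The other keratins on the array were mostly flat. Many of them read low on every array, such as *Krt6b* (log2 level 3.39 to 4.11) and *Krt13* (2.80 to 4.62). The processing shrinks differences among such weak signals, so flat levels do not tell whether the transcripts were present. Of 10 keratins of stratified epithelia, among them the basal pair *Krt5* and *Krt14* and the wound keratins *Krt6a*, *Krt6b* and *Krt16* that share tissues with *Krt17*, 0 passed in either direction (limma; 0 with a positive and 1 with a negative slope at an unadjusted p below 0.05), with a median slope of -0.02, and the largest slope was that of *Krt15* at -0.11 (adjusted p = 0.0932). Of 3 other simple keratins, *Krt20*, known from gut epithelium, rose (slope 0.19, adjusted p = 0.0425, 3.56-fold at 8 d), while *Krt23* (0.00) and *Krt80* (0.02) did not pass. Of the 30 further keratin genes, *Krt79*, known from the hair follicle canal, rose (slope 0.34, limma adjusted p = 0.00501) and *Krt42* fell (-0.11, limma adjusted p = 0.0387). Some probes of the *Krt42* probe set may also bind other transcripts. The log2 level of *Krt79* was 5.07, 4.68, 4.61, 5.77 and 6.00 from 0 to 4 d and 4.75, 7.12 and 7.51 at 0, 6 and 8 d. It was highest at 8 d (6.79-fold), whereas *Krt7* was highest at 6 d.

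**Figure D2:**
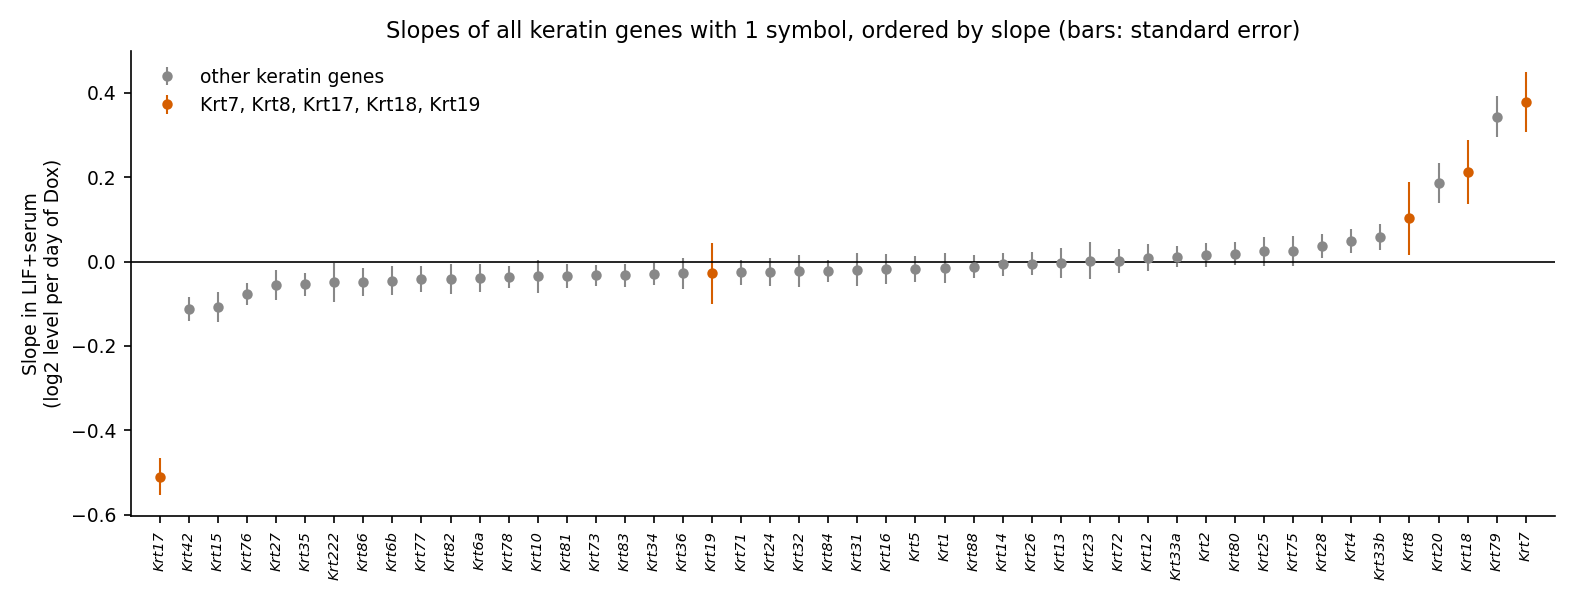
Slope in LIF+serum (log2 level per day of Dox, y axis) of 48 keratin genes (x axis, ordered by slope), with standard errors as bars. *Krt17* at -0.51 stands below the others and *Krt7* at 0.38 is the highest, followed by *Krt79* at 0.34 and *Krt18* at 0.21.

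The transcription factors gave no called change in LIF+serum. Of their 9 probe sets, 0 passed the limma test at an adjusted p below 0.05 and 0 at an unadjusted p below 0.05. Their slopes lay between -0.05 and 0.08 per day on the log2 scale, with adjusted p from 0.365 to 0.978. At the 6 Dox times, 0 of the 54 values were 2-fold or more from the untreated array of the set, and the folds ran from 0.522 to 1.78. Against the untreated array of the other set, the log2 differences at 8 d were 1.04 for *Gata3* and -1.16 for *Elf5*, or -0.11 in the other *Elf5* probe set.

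*Cdx2*, the homeobox gene that marks the trophectoderm from its start, had log2 levels of 5.16, 4.95, 4.90, 5.06 and 5.25 from 0 to 4 d and 4.99, 4.90 and 4.91 at 0, 6 and 8 d. Dox and untreated values overlapped, with a slope of -0.002 ± 0.027 per day (SE, adjusted p = 0.978). *Elf5*, an ETS factor of trophoblast stem cells, read 4.13, 3.20, 3.80, 3.79 and 3.35 and then 3.21, 3.01 and 2.97, where the first untreated array was the highest and lay 0.92 above the second. Its slope was -0.05 (limma adjusted p = 0.559), and that of its other probe set was 0.05 (limma adjusted p = 0.365). *Gata2*, a zinc finger factor of trophoblast giant cells, read 7.41, 7.51, 6.48, 7.32 and 7.38 and then 6.55, 7.33 and 7.38. The arrays at 2 d and of the second untreated sample were low and the other 6 lay close together, so the 1.78-fold level at 8 d (0.83 on the log2 scale) was of the size of the gap between the untreated arrays (0.86), and the slope of 0.08 did not pass (adjusted p = 0.373).

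*Gata3*, which acts beside *Cdx2* in the trophectoderm, read 3.45, 3.74, 3.93, 2.91 and 3.25 and then 4.04, 3.65 and 4.49 on the log2 scale. Its highest value was at 8 d and its lowest at 3 d, and the slope of -0.01 did not pass (adjusted p = 0.965). *Hand1*, a helix-loop-helix factor of giant cells and of mesoderm, read 5.58, 5.24, 5.58, 5.68 and 5.48 and then 5.15, 5.22 and 5.48, a range that Dox and untreated arrays shared (slope 0.03, adjusted p = 0.552). Differences among weak signals are shrunk by the processing, and detection calls were not used here, so these levels do not tell whether the transcripts were present.

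**Figure D3:**
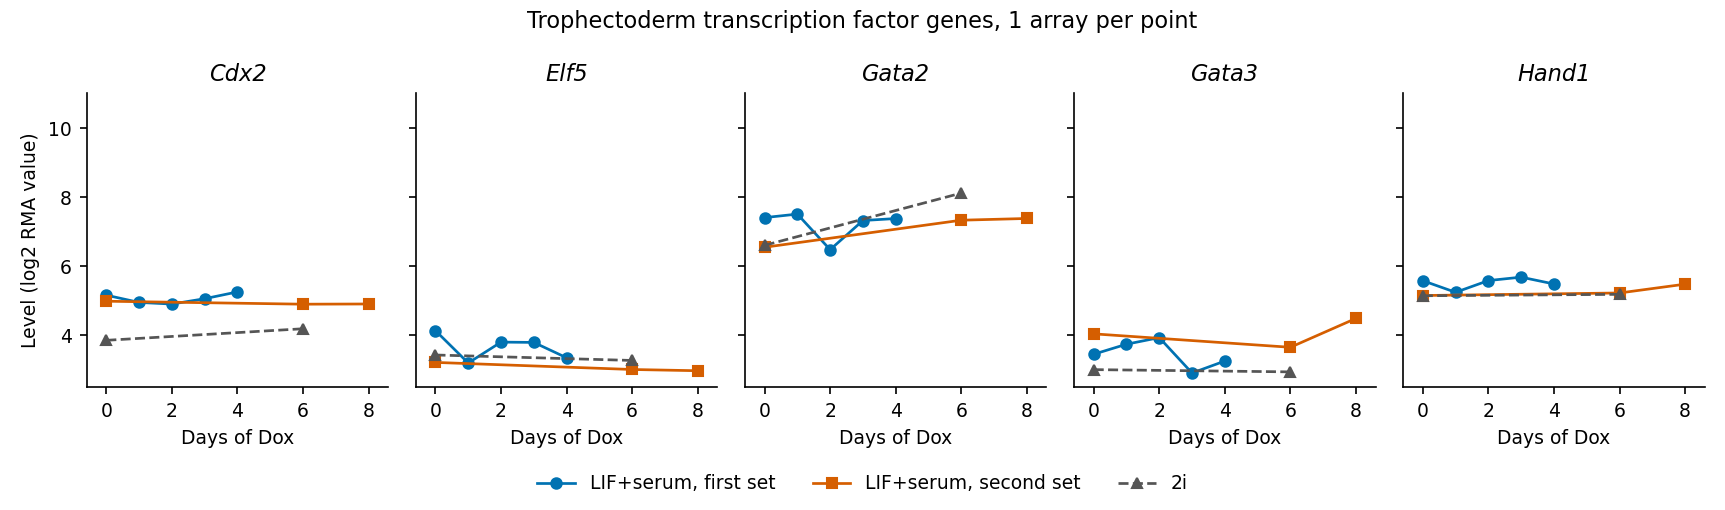
Level (log2 RMA value, y axis, same scale as for the keratins) of the 5 factor genes against days of Dox (x axis), each point 1 array. In LIF+serum *Cdx2* stays between 4.90 and 5.25, and the largest step of a factor in 2i is that of *Gata2*, from 6.60 to 8.12.

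In 2i, Dox for 6 d went with lower *Krt8* and *Krt18* and higher *Gata2*, each read from 1 array per condition with no test. *Krt8* went from 10.43 to 8.36 on the log2 scale (4.21-fold lower, and 4.02-fold and 4.71-fold lower in its other probe sets). *Krt18* went from 8.34 to 7.16 (2.26-fold lower), and *Gata2* from 6.60 to 8.12 (2.85-fold higher, and 1.56-fold in its other probe set). These were the members past 2-fold in 2i, 1 of 10 higher against 1.22% of all probe sets and 2 of 10 lower against 1.8%. The other members moved less. *Krt7* went from 5.37 to 5.95 (a log2 difference of 0.59), *Krt19* from 6.28 to 5.63 and *Krt17* from 3.46 to 3.53, and *Cdx2* went from 3.85 to 4.19, or 1.71-fold in its other probe set.

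At the same 6 d in LIF+serum, 1 of 10 members was at least 2-fold higher (*Krt7*; 5.77% of all probe sets) and 1 lower (*Krt17*; 4.27%). At 4 d the same 2 genes were past 2-fold, against 6.92% and 3.16% of all probe sets. At 1 d, 0 members were past 2-fold (3.08% of all probe sets higher and 0.437% lower). At 2 d, 0 were higher (4.23%) and 2 were lower (*Krt8* and *Krt19*; 1.04%), and at 3 d, 0 were higher (5.41%) and 1 was lower (*Krt17* at 3.03-fold; 2.32%). At 8 d, 3 were higher (*Krt7*, *Krt8* and *Krt18*; 5.49%) and 1 was lower (*Krt17*; 4.51%). *Krt17*, the only member counted lower at 3, 4, 6 and 8 d, was chosen by its fall over these arrays. Its place in the lower counts is therefore not a result about the members. The 2 untreated arrays in LIF+serum were themselves 2-fold or more apart at 6.81% and 2.85% of probe sets (second higher and second lower), and at 0 of the 10 members.

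**Figure D4:**
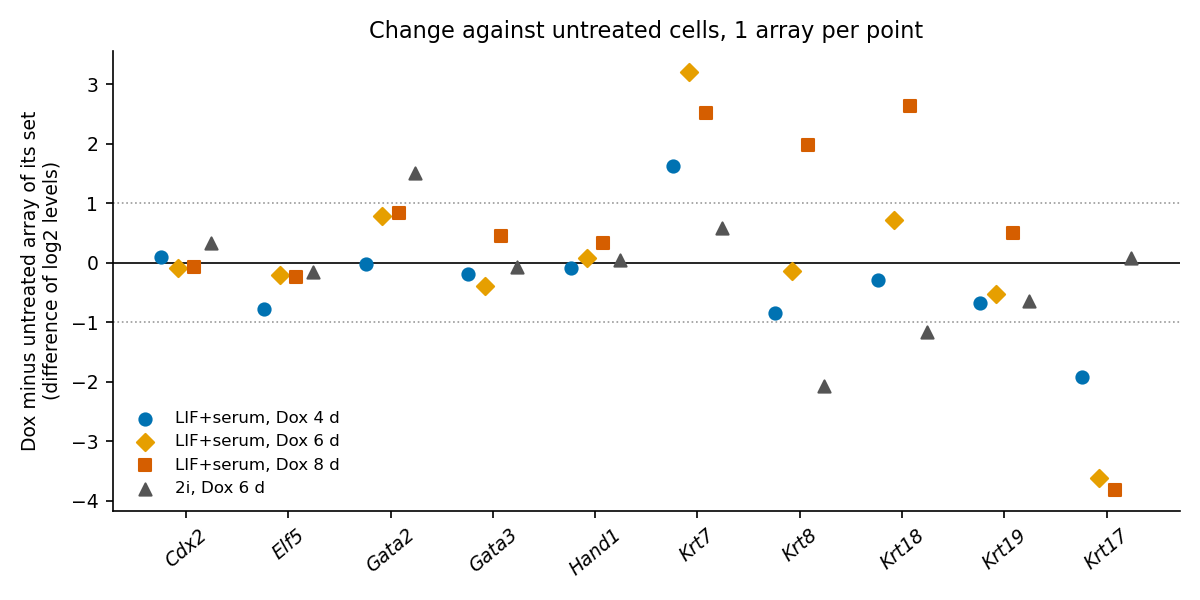
Difference of log2 levels between a Dox array and the untreated array of its set (y axis) for the 10 genes (x axis), each point 1 pair of arrays; dotted lines mark 2-fold. *Krt7* and *Krt17* lie past the lines at 4, 6 and 8 d in LIF+serum and not in 2i, where *Krt17* was already at 3.46 without Dox, and *Krt8* and *Krt18* lie above the upper line at 8 d in LIF+serum and below the lower line in 2i.

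Levels also differed between untreated cells in the 2 media, where medium and array set cannot be told apart. In untreated cells, *Krt8* was 7.44-fold higher in 2i than the mean of the 2 untreated arrays in LIF+serum (6.86-fold and 8.07-fold against each). *Krt17* was 16.9-fold lower (14.0-fold and 20.6-fold) by the measured values, 3.46 in 2i against 7.26 and 7.82. Whether 3.46 is above background was not read here, so these folds may understate the difference, and a further fall with Dox in 2i might not have been seen. *Cdx2* was 2.33-fold lower (2.48-fold and 2.19-fold) by its brighter probe set and 1.10-fold lower by the other, while *Krt18* was 1.89-fold higher (1.47-fold and 2.44-fold). At 2-fold, 1 member was higher (*Krt8*) and 2 were lower (*Krt17* and *Cdx2*), against 5.49% and 6.35% of all probe sets. After quantile normalization of all 10 arrays, only 1 member was 2-fold lower. In order of level, *Krt8* was highest in untreated 2i, then at 8 d in LIF+serum, then in 2i with Dox, and the untreated, 6 d and early Dox arrays in LIF+serum followed. Genes whose levels ran most like the brighter *Cdx2* probe set over the 10 arrays were *Pirt* (Pearson r 0.986), *Srrm3* (0.98) and *Gm11827* (0.979). Like that probe set, all 3 were lower on both arrays in 2i than on every array in LIF+serum. The other *Cdx2* probe set was not, with 4.335 and 5.107 in 2i without and with Dox against 4.263 to 4.785 in LIF+serum.

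Other trophoblast genes changed one by one. Of 14 measured regulators, *Klf5* rose (slope 0.15, adjusted p = 0.0429), a factor that ES cells use as well, and 0 fell (limma; 4 and 2 at an unadjusted p below 0.05). *Eomes*, a T-box factor of trophoblast stem cells, was 2.81-fold at 8 d but 0.639-fold at 4 d, and its slope did not pass (adjusted p = 0.49). *Tead4*, which acts upstream of *Cdx2*, had a slope of -0.11 (adjusted p = 0.112). Of 13 measured trophoblast products, 2 rose and 1 fell. *Cited1*, a transcriptional coactivator of the placenta, read 5.91, 5.28, 4.87, 5.41 and 5.94 from 0 to 4 d and 5.22, 8.35 and 9.22 at 0, 6 and 8 d on the log2 scale, so that it was high only at 6 and 8 d in LIF+serum (slope 0.40, adjusted p = 0.0176, 16.0-fold at 8 d), and it was 5.50-fold in 2i. *Aqp3*, a water and glycerol channel, rose to 8.29-fold at 8 d (slope 0.37, adjusted p = 0.00263). *Phlda2*, an imprinted gene that limits placental growth, fell (slope -0.48, adjusted p = 0.00454) and was 8.52-fold lower at 8 d and 0.444-fold in 2i. Over the 27 genes of both lists, 3 rose and 1 fell, and the median slopes were 0.04 for the regulators and 0.03 for the products.

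Among genes that anchor keratin filaments, seal epithelia or form other intermediate filaments, the only calls were falls. Of 14 genes of desmosomes and plakins, 0 rose and 3 fell (2 and 4 at an unadjusted limma p below 0.05): *Jup* (plakoglobin, slope -0.14, adjusted p = 0.0145), *Pkp2* (plakophilin 2, -0.18, adjusted p = 0.0198) and *Eppk1* (epiplakin, -0.18, adjusted p = 0.0243). The median slope of the 14 was -0.002. It was -0.059 for the junction genes and -0.085 for the other intermediate filament genes given next, against -0.007 over all probe sets. *Dst* (dystonin, 0.17, adjusted p = 0.202), *Pkp3* (0.10, adjusted p = 0.169) and *Ppl* (periplakin, 0.08, adjusted p = 0.283) had positive slopes that did not pass the limma test. On the log2 scale *Dst* read 8.52 at 4 d (3.62-fold) and 9.62 at 8 d (1.27-fold). The untreated arrays of the 2 sets read 6.67 and 9.27 for *Dst*, so its smaller fold at 8 d was not a lower level. *Dsp*, the desmoplakin that ties keratins to the desmosome, had a slope of -0.01 and was 0.769-fold at 8 d and 0.381-fold in 2i. Of 11 measured junction genes, 0 rose and 2 fell (0 and 4 at an unadjusted limma p below 0.05), the claudins *Cldn4* (slope -0.27, adjusted p = 0.00306) and *Cldn6* (-0.25, adjusted p = 0.0266), while *Cdh1* (E-cadherin, -0.03) and *Epcam* (-0.03) did not pass. Of 11 genes of other intermediate filaments, 0 rose and 3 fell (1 and 5 at an unadjusted limma p below 0.05): *Ina* (internexin, a neuronal filament protein, -0.34, adjusted p = 0.00163), *Lmnb1* (-0.17, adjusted p = 0.0133) and *Lmnb2* (-0.17, adjusted p = 0.0243), the B-type lamins of the nuclear envelope. Of the marker lists, 1 of 9 measured trophectoderm and trophoblast genes rose (*Krt7*), 1 of 9 mesoderm genes rose (*Pdgfra*, which the primitive endoderm list also holds) and 0 of 6 keratinocyte genes passed (limma; 1 had a negative slope at an unadjusted p below 0.05), with *Trp63*, a basal keratinocyte factor, at 1.04-fold at 8 d.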

How the data were processed

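RNA levels were read on Affymetrix oligonucleotide arrays for the mouse genome. The authors deposited log2 values made by RMA with affy, per the submitters' processing notes. Their versions and the grouping of arrays in the normalization were not given in the sources used here. The array medians were 5.14 and 5.16 in 2i and 5.26 to 5.33 elsewhere. RMA shrinks differences among weak signals. The number of arrays limits the precision.

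Of 45101 probe sets, 64 controls were left out. A table of the platform's annotation paired 34945 of the other 45037 with 1 symbol and 932 with several, and did not list 9160. A gene was read from its probe set with the highest mean over the 10 arrays. Slopes were fitted with limma 3.58.1 (R 4.3.3, lmFit and eBayes, 5 residual and 4.81 prior degrees of freedom) to 8 arrays with array set as a covariate. A second fit added the interaction of day and set. The fits were tested on simulated data. The Benjamini-Hochberg adjustment ran over every probe set tested, and an adjusted p below 0.05 was called. A fold is 2 to the power of a Dox array's log2 value minus that of its own set's untreated array, with 1 array per time and no test. Python 3.11.15 with pandas 2.3.3 made the other tables.

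The members, the lists and the tests were chosen with earlier results of these data known. All members were named, with up to 4 genes of each list by slope, and some further list members are given that were chosen after their values were seen. Alternatives changed the time scale, the set term, the reference array, the normalization, the filter (log2 level of 6 on at least 1 array), the probe set rule and the arrays left out.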

Additional observations from a re-analysis of the deposited data

Results flagged for a closer look

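At 6 d of Dox, *Krt18* moved in opposite directions in the 2 media. In 2i it changed by -1.17 on the log2 scale (8.34 to 7.16), and in LIF+serum by 0.72 (7.05 to 7.78). Each value is a difference of 2 single arrays, and the difference between the media was not tested. The 2 untreated arrays in LIF+serum were 0.73 apart.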

How the results depend on the processing

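The number of members that rose, 1, was 0 when Dox was set against none or when the first set was fitted alone, and 2 when the second set was fitted alone or the set term was left out. Leaving out each array in turn gave 0 to 2, with 0 without the second untreated array and 2 without the first. The number that fell stayed 0 in all of these fits. *Krt7* missed the threshold in 3 fits (adjusted p = 0.193 for Dox against none, 0.0777 in the first set, 0.407 without the second untreated array), and *Krt18* passed in 3 (0.0326 in the second set, 0.0499 without the set term, 0.0217 without the first untreated array). The count of members 2-fold lower was 0 at 4 d when probe sets were averaged and 2 at 8 d against the other set's untreated array, where 4 rather than 3 were higher (*Gata3* in addition). In untreated 2i, 2 members were higher after centring on the medians or without the first untreated array (range over both arrays 1 to 2 higher, 2 to 3 lower), and 1 was lower after quantile normalization of all 10 arrays. Slopes that turned sign were all of members that did not pass: *Gata3* 0.017 and *Krt8* -0.09 for Dox against none; *Cdx2* 0.03, *Gata2* -0.024, *Krt8* -0.181 and *Krt18* -0.026 in the first set; *Gata3* and *Krt19* 0.028 in the second; *Cdx2* 0.004 and *Elf5* 0.003 with averaged probe sets; and *Gata3* 0.048 without the set term. Leaving out each array gave slopes of -0.086 to 0.013 for *Gata3*, -0.014 to 0.025 for *Cdx2*, -0.08 to 0.163 for *Krt8* and -0.016 to 0.102 for *Gata2*. It gave differences of slope between sets of -0.762 to 0.198 for *Krt7*, -0.118 to 0.025 for *Cdx2*, -0.048 to 0.103 for *Hand1* and -0.076 to 0.146 for *Elf5*. The slope of *Krt17* was -0.574 to -0.45 over the arrays left out and -0.244 with both probe sets averaged. Over all probe sets, 2150 rose and 1879 fell, against 848 and 502 for Dox against none, 1233 and 1065 with averaged probe sets, 991 and 1159 that fell in the first and second set alone, and 0 to 2739 and 0 to 2581 over the arrays left out. The causes were not tested. No paired analysis was possible because each Dox time has 1 array and the labels give no replicate number that pairs arrays across groups. The array set, which ties Dox arrays to an untreated array, was a covariate.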
